A study of Mus musculus with 3 samples.

Results

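The MHC class II pathway of mouse was followed through 10 genes: the transactivator gene Ciita, the class II chain genes H2-Aa, H2-Ab1 and H2-Eb1, the invariant chain gene Cd74, the genes of the DM peptide editor (H2-DMa, H2-DMb1 and H2-DMb2) and those of its partner DO (H2-Oa and H2-Ob). They are 10 of 22457 genes in the deposited count tables. They were listed by name because their counts had been seen to spread between libraries, so their own spread is given here as a description, with no test. The counts come from poly(A) RNA sequencing of regulatory T (Treg) cells, a CD4 lineage that dampens immune responses. They were primary cells, and the labels give male sex, adult stage and an age of 4 months. The labels give 3 libraries, technical replicates 1, 2 and 3 of 1 biological sample, and no condition or control. No source used here gives the strain, genotype, tissue, isolation method or number of animals. Whether the libraries came from 1 pool of cells or from separate sorts is not stated either, so a difference or SD between libraries may be technical or may come from the cells, and these cannot be told apart.

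MHC class II molecules are pairs of an alpha and a beta chain that display peptides from internalised proteins to CD4 T cells. The invariant chain fills the groove of a new pair on its way to the endosome, proteases trim it, and DM then exchanges the last fragment for peptide, while DO restrains DM. Ciita is the coactivator that switches the whole set on, through factors bound to paired X and Y boxes in the promoters. B cells, dendritic cells and macrophages are the classical sites of this pathway. Mouse T cells are generally described as not expressing Ciita, unlike activated human T cells.

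Of the 10 genes, 8 lie on chromosome 17 in the MHC (GRCm38). The chain genes are neighbours, with H2-Ab1 at 34257689 to 34269419 on the plus strand, H2-Aa at 34282744 to 34287823 on the minus strand and H2-Eb1 at 34305867 to 34316674 on the plus strand. Ciita lies on chromosome 16 (10480059 to 10528418, plus strand). RefSeq promoter windows of 300 bases (GRCm38.p6, 250 before the start site and 50 after it) matched 7 of the 10 genes, with 2 windows for H2-DMa. The 6 of these genes whose window held TGATTGG, which contains the Y box core ATTGG, are printed over 65 bases, 5′ to 3′ on the gene's own strand, because the X and Y boxes are the shared address of the pathway. Capitals mark TGATTGG and, where present on the same strand, the X box letters (G, any 2 bases, AC, any 3 bases, TG) with 15 to 35 bases between them and ATTGG.
H2-Aa (chr17:34287859-34287923, minus strand): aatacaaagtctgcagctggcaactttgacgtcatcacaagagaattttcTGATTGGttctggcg
H2-Eb1 (chr17:34305756-34305820, plus strand): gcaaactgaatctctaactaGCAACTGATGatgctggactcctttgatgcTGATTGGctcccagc
H2-DMb1 (chr17:34153078-34153142, plus strand): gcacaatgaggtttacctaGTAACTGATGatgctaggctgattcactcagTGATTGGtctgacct
H2-DMb2 (chr17:34145107-34145171, plus strand): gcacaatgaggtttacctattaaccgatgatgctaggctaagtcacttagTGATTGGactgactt
H2-Oa (chr17:34092284-34092348, plus strand): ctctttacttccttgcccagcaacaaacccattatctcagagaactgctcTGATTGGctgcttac
H2-Ob (chr17:34238796-34238860, plus strand): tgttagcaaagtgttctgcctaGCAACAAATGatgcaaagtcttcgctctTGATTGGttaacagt

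The pair of boxes at that spacing stood in 3 of the member windows, with a gap of 22 bases in H2-Eb1, 23 in H2-DMb1 and 20 in H2-Ob. On either strand it stood in 0.886% of all 32851 promoter windows. ATTGG alone was in 7 of the 8 member windows and 37.4% of all windows, and the X box letters alone in 5 of the 8 and 38.7%, on either strand. TGATTGG, chosen after the sequences were seen, was in 7.82% of all windows. Its ATTGG started 48 bases before the start site in H2-Aa, 59 in H2-Eb1, 61 in H2-DMb1, 90 in H2-DMb2, 43 in H2-Oa and 57 in H2-Ob. The shown stretches of the paralogs H2-DMb1 and H2-DMb2 were identical at 58 of 65 bases. These matches describe letters, not bound sites.

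The counts of the 10 genes were not spread alike. Library totals were 3316275, 3079004 and 2782259 counts in libraries 1, 2 and 3, and levels are given as CPM, the count divided by the library total and multiplied by 1e6, at which 3 counts equal 0.905, 0.974 and 1.08 CPM. All 10 genes reached 1 CPM in each library, and all 10 were lowest in library 1. Of the 10, 7 were highest in library 2 and 3 in library 3. Exact 95% Poisson intervals, which cover counting error only, placed library 1 wholly below library 2 for 7 genes and wholly below library 3 for 7. They placed library 2 wholly above library 3 for 2, H2-Aa and H2-Ab1. The same counts over all genes are not given here, and the members were chosen for their spread. These counts therefore describe the 10 genes only.

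Libraries 1, 2 and 3 held 13, 59 and 44 counts of Ciita, or 3.92, 19.2 and 15.8 CPM. Library 1 stood apart, and its interval of 2.09 to 6.70 CPM did not reach those of the other libraries, 14.6 to 24.7 and 11.5 to 21.2. The ratio of library 2 to library 1 was 4.89 (exact interval 2.65 to 9.72), the widest among the 10 genes, and rests on 13 counts in library 1. Ciita shares 329 exonic bases with Dexi on the opposite strand, and strand use in the counting is not given.

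H2-Ab1, which encodes the beta chain of I-A, had 157, 490 and 293 counts in libraries 1, 2 and 3, or 47.3, 159 and 105 CPM. H2-Aa, its alpha chain, had 144, 404 and 279 counts, or 43.4, 131 and 100.3 CPM. H2-Eb1, the beta chain of I-E, had 181, 352 and 266 counts, or 54.6, 114 and 95.6 CPM. Each chain was lowest in library 1 and highest in library 2, with no overlap of intervals between library 1 and the others. Library 2 over library 1 was 3.36 for H2-Ab1 (2.80 to 4.05), 3.02 for H2-Aa (2.49 to 3.68) and 2.10 for H2-Eb1 (1.75 to 2.52). H2-Ea-ps, the locus of the I-E alpha chain, was not analysed here.

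**Figure D1:**
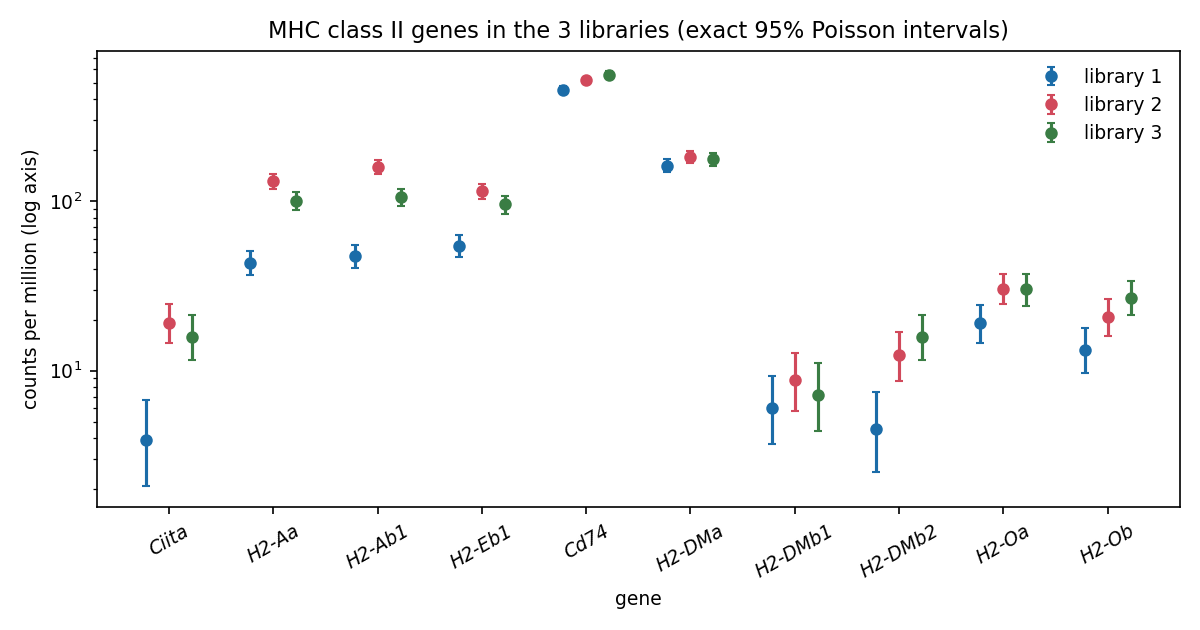
CPM (log axis) of the 10 MHC class II genes in libraries 1, 2 and 3, with exact 95% Poisson intervals. Ciita and the 3 chain genes lie well below the other libraries in library 1, while Cd74 stays between 454 and 553 CPM and H2-DMa between 162 and 182 CPM.

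Cd74 and H2-DMa, the most abundant members, had the smallest ratios between libraries. Cd74, on chromosome 18 (60803848 to 60812652, plus strand), had 1505, 1584 and 1539 counts, or 454, 515 and 553 CPM. Its counts were nearly equal, and its order by CPM was that of falling library totals. H2-DMa, the alpha chain of DM, had 537, 560 and 493 counts, or 162, 182 and 177 CPM, with overlapping intervals. Its exons share 360 bases with those of Brd2 on the opposite strand. The list was named for variation between libraries, which suits H2-DMa poorly, with a ratio of highest to lowest library of 1.12. H2-DMb1 had a larger ratio, 1.45, but only 20, 27 and 20 counts, and its intervals overlapped. Cd74 had a ratio of 1.22 on far more counts. Its interval in library 1 (431 to 477 CPM) lay wholly below those in libraries 2 and 3.

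The beta chains of DM were scarce. H2-DMb1 had 20, 27 and 20 counts in libraries 1, 2 and 3 and H2-DMb2 had 15, 38 and 44. The intervals of H2-DMb1 overlapped in all libraries, and library 1 lay below the others for H2-DMb2 alone. The split between both genes is uncertain, since 37.6% of the transcript 31-mers of H2-DMb1 and 36.6% of those of H2-DMb2 also occur in other genes, mainly in one another. Summed, they had 35, 65 and 64 counts, against which H2-DMa had 15.3, 8.62 and 7.70 times as many, although the 3 genes have the same coding length of 783 bases. How reads with several matches were handled is not given, and its part in this ratio was not tested.

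H2-Oa, the alpha chain of DO, had 63, 94 and 84 counts, or 19.0, 30.5 and 30.2 CPM. H2-Ob, the beta chain, had 44, 64 and 75 counts, or 13.3, 20.8 and 26.96 CPM. Both were lowest in library 1, but the intervals of H2-Oa in libraries 1 and 3 and those of H2-Ob in libraries 1 and 2 overlapped. H2-Oa shares 321 exonic bases with the antisense gene BC051537, which is not in the count tables. Their ratio, H2-Oa over H2-Ob, was 1.43, 1.47 and 1.12, within overlapping exact intervals.

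Ordered by CPM per coding kilobase, the mean level was highest for Cd74 at 606 ± 59.8 and H2-DMa at 222 ± 13.3, followed by the chains H2-Ab1 at 131 ± 70.3, H2-Aa at 119 ± 57.98 and H2-Eb1 at 95.4 ± 33.1 (SD, n = 3 libraries). Below them stood H2-Oa at 35.4 ± 8.75, H2-Ob at 21.7 ± 7.30, H2-DMb2 at 13.9 ± 7.39, H2-DMb1 at 9.36 ± 1.76 and Ciita at 3.46 ± 2.14. The ranges over libraries overlapped among the 3 chains and between neighbours from H2-Oa down to H2-DMb1. Within a library, H2-Oa over H2-Ob per coding base was 1.79 (1.20 to 2.70), 1.84 (1.32 to 2.57) and 1.40 (1.02 to 1.94) in libraries 1, 2 and 3, above 1 in each. H2-Eb1 over H2-Ab1 per coding base was 0.992 (0.797 to 1.24), 0.618 (0.537 to 0.710) and 0.781 (0.659 to 0.925), below 1 in libraries 2 and 3. The intervals of H2-Aa over H2-Ab1, H2-Ob over H2-DMb2 and H2-DMb2 over H2-DMb1 each held 1 in 2 of the 3 libraries. These ratios were added after the data were seen. Per kilobase of the longest coding transcript the order was the same, but H2-DMa at 86.6 ± 5.20 then overlapped H2-Ab1 at 85.8 ± 46.1, and H2-Oa no longer overlapped H2-Ob.

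Within a library, the 2 chains of I-A kept close proportions and the invariant chain did not. H2-Aa had 0.917, 0.825 and 0.952 times the counts of H2-Ab1 in libraries 1, 2 and 3, with overlapping exact intervals. H2-Eb1 over H2-Ab1 was 1.15 (0.926 to 1.44), 0.718 (0.625 to 0.826) and 0.908 (0.766 to 1.08), so library 2 lay below library 1. Cd74 over the summed chains was 3.12 (2.82 to 3.47) in library 1, 1.27 (1.18 to 1.37) in library 2 and 1.84 (1.69 to 2.00) in library 3, with no overlap between any pair. Ciita over the chains was 0.027, 0.0474 and 0.0525, with overlapping intervals. Cd74 held 56.2%, 43.1% and 49.1% of the summed counts of the 10 genes.

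**Figure D2:**
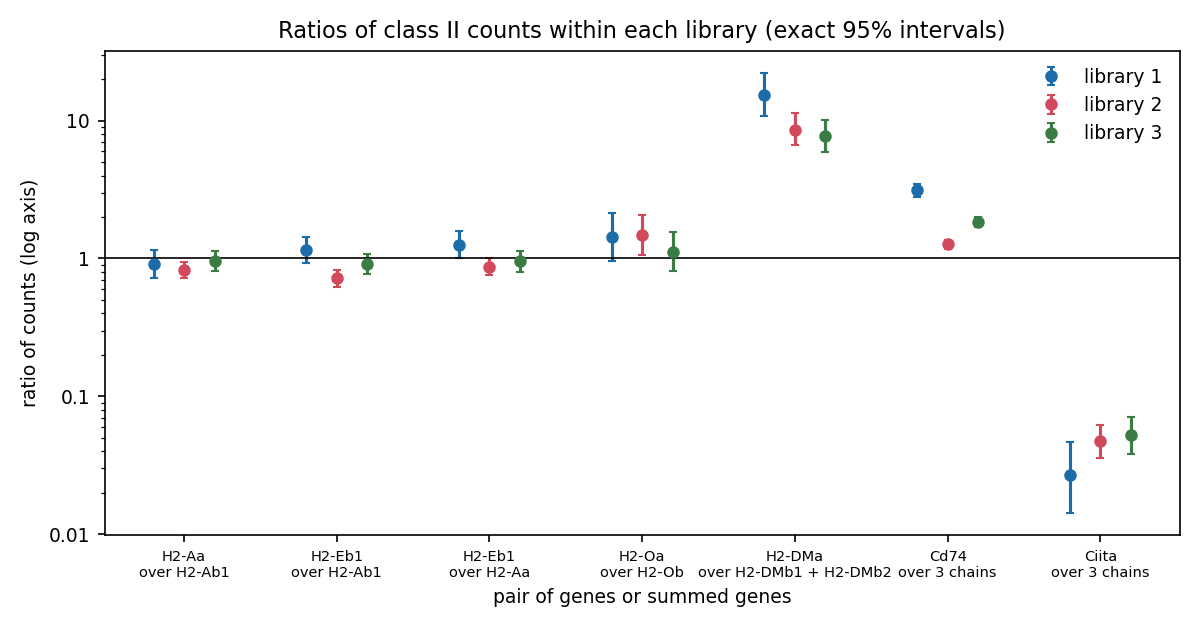
Ratios of counts within each library (log axis) for pairs of class II genes or sums, with exact 95% intervals; the 3 chains are H2-Aa, H2-Ab1 and H2-Eb1. H2-Aa over H2-Ab1 stays between 0.825 and 0.952, while Cd74 over the chains is 3.12 in library 1 and 1.27 in library 2.

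Summed over the 10 genes the level was 808, 1193 and 1128 CPM in libraries 1, 2 and 3, a ratio of 1.48 between the highest and the lowest library. That ratio was 1.06 without library 1 and 1.92 without Cd74. The chains alone summed to 145, 405 and 301 CPM, a ratio of 2.78. Across the 10043 genes that summed to at least 30 counts the median ratio was 1.23, given as background only, since the members were chosen for their spread. By the chi-square test of homogeneity of counts against library totals (Benjamini-Hochberg adjusted, threshold 0.05), 22.7% of the 10043 genes were called. No result of that test is given for the members, which were chosen on this contrast.

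The spread of counts over all genes differed with count density, the mean count per coding base. In classes of rising density (below 0.2, 0.2 to 0.5, 0.5 to 1, 1 to 1.8 and 1.8 or more), the median ratio of highest to lowest library was 1.39, 1.23, 1.15, 1.09 and 1.03 in counts. In CPM it was 1.32, 1.16, 1.13, 1.13 and 1.17. Cd74 lay at 1.84 counts per coding base, among 80 genes at 1.8 or more. Of those 80 genes, 1 had a larger CPM ratio than Cd74. H2-DMa lay at 0.677, and 459 of the 883 genes of its class (0.5 to 1) had a larger CPM ratio. The chains lay between 0.288 and 0.394, in a class of 1992 genes (0.2 to 0.5). In that class no gene had a larger ratio than H2-Ab1, 3 had a larger one than H2-Aa and 9 a larger one than H2-Eb1. Of the 6655 genes below 0.2, 54 exceeded Ciita and 2119 exceeded H2-DMb1. These ranks use the spread for which the members were chosen and describe that choice. The part of density in the near-equal counts of Cd74 was not tested.

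**Figure D3:**
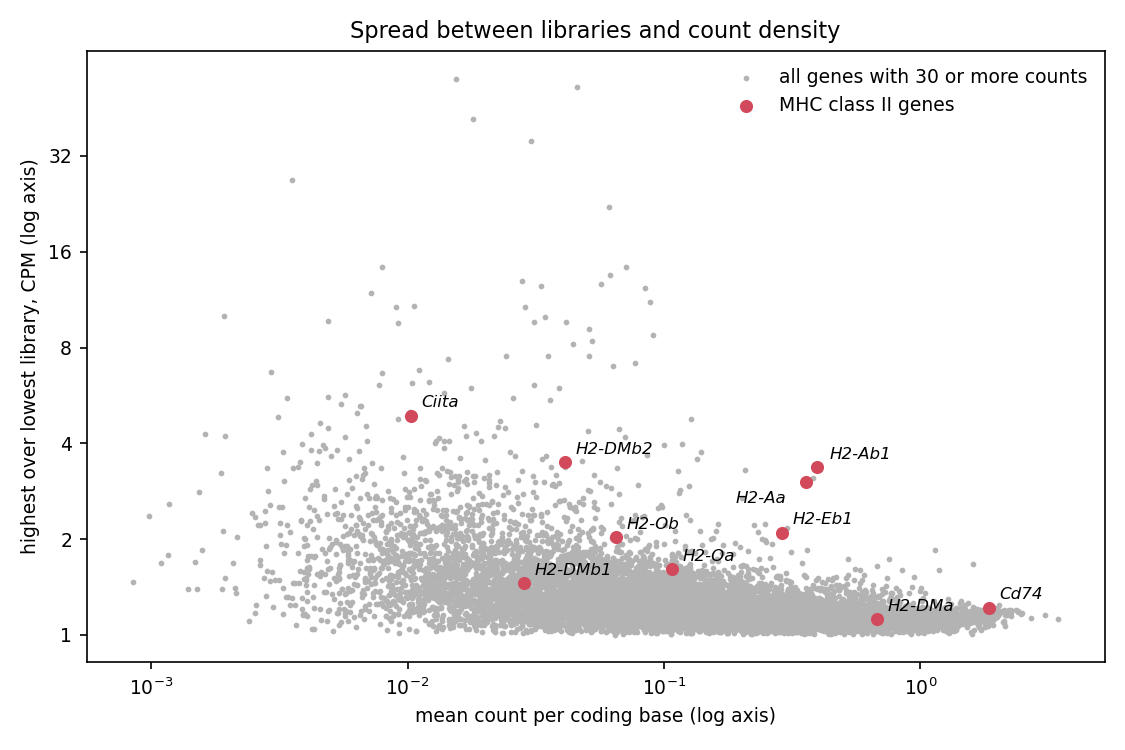
Ratio of the highest to the lowest library in CPM (log axis) against the mean count per coding base (log axis) for genes with 30 or more summed counts and a count in each library; red points are the 10 MHC class II genes. H2-Ab1, H2-Aa and H2-Eb1 have ratios of 3.36, 3.02 and 2.10, and Cd74 and H2-DMa lie among denser genes with ratios of 1.22 and 1.12; the members were chosen for their spread.

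The genes around the pathway, which the choice of members did not use, showed small differences. Their lists were chosen with earlier results of these data known, so the shares called are a description. Of 56 such genes measured, 47 had 30 or more summed counts and 18 (38.3%) were called by the chi-square test, against 22.7% of all genes tested. Their median ratio of highest to lowest library was 1.16, below the 1.23 of all genes. Of the 18, 3 were highest in library 1, 10 in library 2 and 5 in library 3, and over all genes tested those called and highest in library 1, 2 or 3 made up 7.61%, 7.03% and 8.04%. By edgeR's quasi-likelihood test of each library against the other 2, none was called, and 7 had an unadjusted p under 0.05. That test called 0.438% of all genes. Each of its fits sets 1 library against 2, so the spread comes from those 2 technical libraries and the lone library is assumed to vary like them. For each gene the smallest p of the 3 fits was taken. An unadjusted p under 0.05 is therefore reached more often than in a single fit. DESeq2 called 0.0199% of all genes and none of these, with 1 at an unadjusted p under 0.05. The chi-square count was 10 without library 1 and 4 without library 3, where the test called 13.1% and 9.43% of all genes.

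The factors that sit on the X and Y boxes or are recruited by Ciita were present, and 3 of 11 (27.3%) were called, near the 22.7% of all genes tested. Rfx5, Rfxap and Rfxank, the subunits of the X box factor RFX, had 68, 85 and 49 counts, 10, 13 and 10 counts, and 289, 287 and 244 counts in libraries 1, 2 and 3. None of them passed the chi-square test (adjusted p = 0.0965, 0.816 and 0.786). Nfyb, a subunit of the Y box factor NF-Y, stood at 144 ± 6.04 CPM (SD, n = 3 libraries). The acetyltransferase gene Crebbp had 330.0 ± 8.65 CPM and the chromatin remodeller Smarca4 365 ± 26.1. Called were Ep300, an acetyltransferase, with 352, 463 and 371 counts (chi-square test, adjusted p = 9.72e-05), Smarca4 with 1112, 1180 and 1049 (chi-square test, adjusted p = 0.0169) and Creb1, an X box factor, with 308, 252 and 188 (chi-square test, adjusted p = 0.0171). Ep300 was highest in library 2 at 1.42 times its lowest level, and Creb1 was highest in library 1.

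Of 14 genes known to induce or repress Ciita, 12 were tested and 5 (41.7%) called, against 22.7% of all genes tested. Interferon signalling genes were abundant, with the kinase gene Jak1 at 1055 ± 68.5 CPM and the receptor gene Ifngr1 at 705 ± 31.5 (SD, n = 3 libraries). Their levels in the highest library were 1.14 and 1.09 times those in the lowest. Jak1 and Ifngr1 passed the chi-square test (adjusted p = 4.15e-05 and 0.0493). Prdm1, which encodes Blimp-1, a repressor of Ciita in plasma cells, had 747, 628 and 390 counts (chi-square test, adjusted p = 1.14e-11). Prdm1 was highest in library 1 at 225 CPM, where Ciita was lowest. It stood at 204 CPM in library 2, where Ciita was highest. In library 3 it was lowest at 140 CPM, where Ciita lay between its other levels. A link between both genes was not tested. The interferon regulatory factor genes Irf8, with 226, 265 and 166 counts, and Irf4, with 143, 143 and 83, also passed (chi-square test, adjusted p = 0.00513 and 0.0225). Pax5, the B cell lineage factor, and Spi1, the myeloid factor PU.1, had 0, 1 and 1 and 0, 2 and 2 counts.

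Proteases and traffic genes of the pathway ranged widely in level. The most abundant, Ctsb, Ctsd and the tetraspanin gene Cd82, stood at 596 ± 17.6, 519 ± 35.6 and 504 ± 27.8 CPM (SD, n = 3 libraries). Of 17 genes 14 were tested and 5 (35.7%) called, against 22.7% of all genes tested. The 5 were Ctss, the cathepsin that trims the invariant chain, Ctsd, Cd83, Cd82 and Cd37. Ctss had 1448, 1453 and 1405 counts (chi-square test, adjusted p = 0.00503), nearly equal while the totals it was tested against differed. Cd83, which stabilises class II on the surface, had 393, 390 and 461 counts (chi-square test, adjusted p = 2.87e-05). At the low end, Ctsl had 6.28 ± 1.22 CPM and Lamp1 19.5 ± 4.63 (SD, n = 3 libraries), with ratios of highest to lowest library of 1.49 and 1.63, and neither passed (chi-square test, adjusted p = 0.655 and 0.104). Cd83 was 1.40 times as high in library 3 as in its lowest library, and the other called genes differed by 1.16 times or less. March1, the ubiquitin ligase that removes surface class II, had 1, 7 and 3 counts and was not tested.

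Of 6 genes for receptors and ligands, 5 were tested and 2 (40%) called, against 22.7% of all genes tested. Cd4, the coreceptor for class II, had 1892, 1920 and 1501 counts (chi-square test, adjusted p = 0.00132). Lag3, an inhibitory receptor for class II, had 331, 333 and 204 counts (chi-square test, adjusted p = 6.36e-04). Both were lowest in library 3. Cd44, which pairs with the invariant chain as a receptor for Mif, had 207 ± 10.1 CPM (SD, n = 3 libraries) and did not pass (chi-square test, adjusted p = 0.379).

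Among 8 measured neighbours in the class II region, 5 were tested and 3 (60%) called, against 22.7% of all genes tested. The peptide transporter genes Tap1 and Tap2 had 2433, 2468 and 2002 and 1583, 1906 and 1455 counts (chi-square test, adjusted p = 0.00453 and 6.78e-12). The immunoproteasome gene Psmb8 had 1572, 1594 and 1558 (chi-square test, adjusted p = 3.39e-04), nearly equal while the totals it was tested against differed. Their ratios of highest to lowest library were 1.11, 1.297 and 1.18. The flanking chain genes, which were chosen for their spread, reached 3.36. Tap1, Tap2 and Psmb8 also lie at higher density, 1.06, 0.783 and 1.90 counts per coding base, than the chains at 0.288 to 0.394. H2-Eb2, the further I-E beta gene, had 0, 2 and 2 counts.

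Markers of B cells, of monocytes and macrophages and of dendritic cells summed lower in library 1 than in library 2, as the chains did. The dendritic cell sum was not above library 1 in library 3, and Bst2 and Irf8 held most of it. The sum of the costimulation genes differed little, by the values given for each. The part of these markers in the spread was not tested. All marker lists were chosen with earlier results of these data known, so the shares called in this and the following paragraphs are a description. In bulk RNA, more cells of a type and more RNA per cell cannot be told apart. B cell markers summed to 1015, 1207 and 1323 CPM in libraries 1, 2 and 3, of which Ighm (2966, 2956 and 2904 counts) held most. Without Ighm they summed to 120, 247 and 280 CPM, so libraries 2 and 3 lay 2.05 (1.82 to 2.33) and 2.32 (2.06 to 2.63) times above library 1. The chains lay 2.78 (2.50 to 3.10) and 2.07 (1.85 to 2.32) times above it. Of 16 B cell markers 13 were tested and 11 (84.6%) called by the chi-square test, against 22.7% of all genes tested. When library 1, 2 or 3 was left out, 2 of 13, 9 of 11 and 7 of 11 were called, against 13.1%, 15.3% and 9.43% of all genes. Examples were Cd79a with 12, 69 and 72 counts, Cd79b with 148, 165 and 204, Ighd with 39, 75 and 74, Ebf1 with 3, 18 and 27 and Fcer2a with 5, 18 and 17. Ms4a1, with 8, 68 and 58 counts, was picked with its values known. By edgeR's quasi-likelihood test, Ms4a1, Cd79a and Bank1 were among those called for library 1 against the others, a comparison with 1 library in an arm (adjusted p = 7.75e-06, 1.41e-05 and 0.0393). Pax5 had 0, 1 and 1 counts and Cxcr5 113, 103 and 95, so the list was not uniform.

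Monocyte and macrophage markers were highest in library 2 and summed to 63.3, 152 and 60.4 CPM in libraries 1, 2 and 3. Without Itgam, their most abundant gene, they summed to 23.8, 92.9 and 40.97 CPM, or 3.90 (3.03 to 5.07) and 1.72 (1.28 to 2.32) times library 1 in libraries 2 and 3, so library 3 lay above library 1 only without Itgam. Of 11 markers 6 were tested and 5 (83.3%) called by the chi-square test, against 22.7% of all genes tested. The 5 were Itgam with 131, 181 and 54 counts, Apoe with 11, 84 and 29, Lyz2 with 1, 49 and 11, Csf1r with 5, 26 and 12 and C1qb with 7, 28 and 7. Leaving out library 2, 2 of 3 tested were called, against 15.3% of all genes. In edgeR's quasi-likelihood test Lyz2, Apoe and Itgam were called for library 2 alone against the other libraries (adjusted p = 1.29e-04, 3.46e-04 and 0.0214). Of the 11 markers 4 were at 0 in library 1, 1 in library 2 and 2 in library 3.

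Dendritic cell markers summed to 147.5, 208 and 146 CPM, and without Bst2 to 74.5, 111 and 71.9. Irf8, also listed among the genes that induce or repress Ciita, held most of that remainder. Of 10 markers 4 were tested and 3 (75%) called by the chi-square test, against 22.7% of all genes tested. The 3 were Bst2 with 242, 298 and 207 counts, Irf8 with 226, 265 and 166 and Flt3 with 1, 25 and 6. When library 1, 2 or 3 was left out, 3 of 3, 0 of 2 and 1 of 2 tested were called, against 13.1%, 15.3% and 9.43% of all genes. In edgeR's quasi-likelihood test 1 gene, Flt3, was called for library 2 alone against the other libraries (adjusted p = 0.00994). Siglech had 2, 13 and 3 counts, Itgax 3, 10 and 7, Cd209a 0, 8 and 1 and Batf3 2, 5 and 1, all highest in library 2. Zbtb46 had 11, 13 and 15 counts and was highest in library 3. Clec9a had no count in any library and Xcr1 had 2, 2 and 1.

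Plasma cell markers were not uniform in their order over libraries. Igha had 12, 68 and 128 counts and Jchain 6, 14 and 68, both highest in library 3 (chi-square test, adjusted p = 7.97e-24 and 2.55e-18), while Prdm1 was lowest there. The list summed to 308, 310.5 and 286 CPM, and without Prdm1, its most abundant gene, to 82.3, 107 and 146, so library 3 was lowest with it and highest without it. Without Prdm1 the order of the libraries was that of the B cell sum. Of 6 markers 4 were tested and 3 (75%) called, against 22.7% of all genes tested. With library 3 left out, 1 of 3 tested was called, against 9.43% of all genes.

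Treg and T cell markers differed little in sum, but 11 of the 12 lie at 0.5 counts per coding base or more, where counts were nearer to equal over all genes. Of the 16 B cell markers 15 lie below 0.5, as do all 11 monocyte and macrophage markers. The Treg and T cell markers summed to 6730, 6931 and 7375 CPM, a ratio of 1.10, and Foxp3, the factor that defines Treg cells, had 448, 447 and 407 counts (chi-square test, adjusted p = 0.590). Of 12 markers 9 were called by the chi-square test and none by edgeR, where 0 also had an unadjusted p under 0.05. Among those called were Ptprc at 2151 ± 115 CPM, Lck at 981 ± 53.3, Tnfrsf18 at 588 ± 49.98 and Cd4 at 578 ± 42.5, and at the low end Cd3d at 364 ± 28.2 and Il2ra at 316 ± 23.3 (SD, n = 3 libraries). Their CPM differed by at most 1.19 times. Over all genes tested, 22.7% were called by the chi-square test. The number of these markers called by it was 5 with TMM library sizes, with which 22% of all genes were called. It was 3 without library 1 and 1 without library 3, where 13.1% and 9.43% of all genes were called.

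Costimulation genes of antigen-presenting cells did not follow the chains in sum. Of 7 genes 6 were tested, and none was called by the chi-square test, edgeR or DESeq2, with 0 at an unadjusted p under 0.05 in each. Cd80 had 236, 196 and 184 counts, Cd86 121, 147 and 127 and Cd274 (PD-L1) 237, 235 and 190. The list also held the MHC gene H2-M2, which was not tested and had 0, 6 and 4 counts. Without Cd274 the list summed to 1.08 (0.951 to 1.24) and 1.11 (0.973 to 1.27) times library 1 in libraries 2 and 3.

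**Figure D4:**
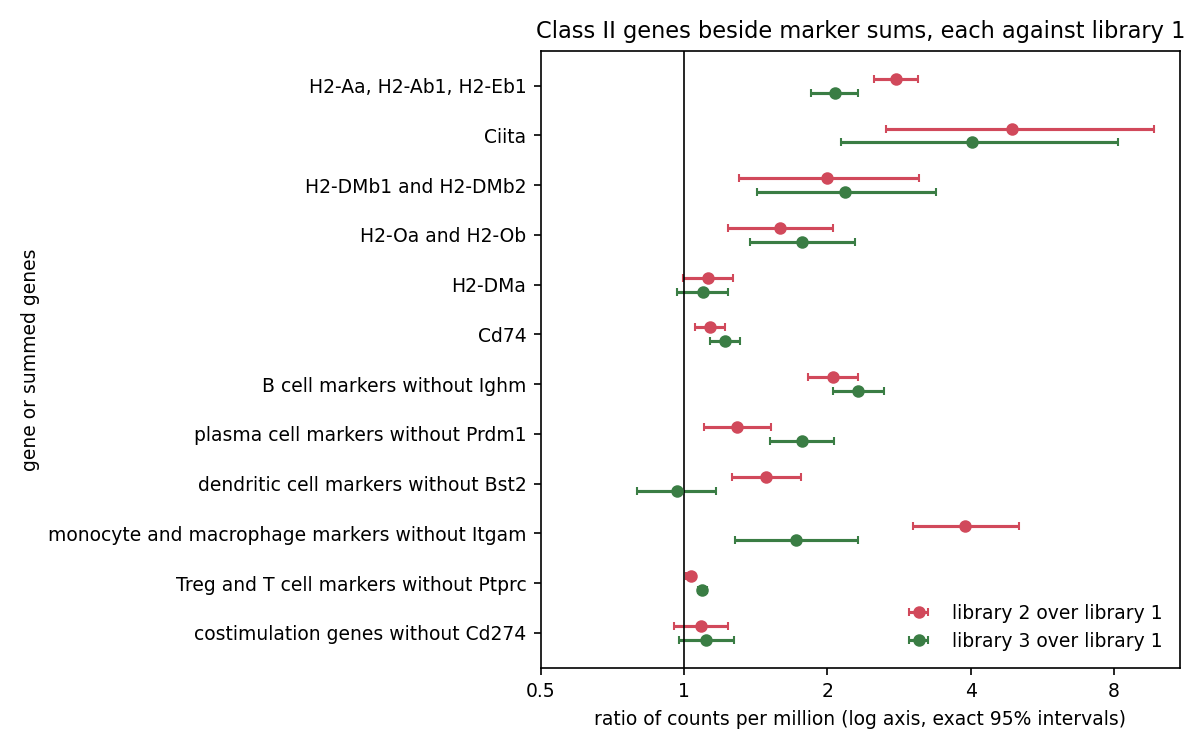
Ratio of CPM (log axis, exact 95% intervals) in libraries 2 and 3 over library 1 for class II genes and for summed marker lists, each without its most abundant gene. The chains stand at 2.78 and 2.07, B cell markers at 2.05 and 2.32, monocyte and macrophage markers at 3.90 and 1.72, and Treg and T cell markers at 1.03 and 1.09.

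The genes closest in pattern to the summed chains were found by the share of CPM that each library held, 17.1%, 47.5% and 35.4% for the chains. Likeness was 0.5 times the summed absolute difference of these shares, as fractions, over 3 libraries and 8453 genes outside the list with 100 or more summed counts, whose median distance was 0.166. The 10 nearest genes were Tspan17 (0.00991), Ctsh (0.0197), Ift172 (0.0274), Tomm40 (0.0348), Napsa (0.0395), Mafk (0.0408), Cd22 (0.0422), Trappc2 (0.0426), Acbd4 (0.0468) and Slc45a4 (0.0504). Ctsh, which encodes the lysosomal protease cathepsin H, had 22, 65 and 45 counts. Napsa, which encodes the aspartic protease napsin A, had 23, 72 and 42, and the B cell lectin gene Cd22 had 35, 67 and 48. With 3 values per gene and low counts, such likeness is a description. By the same distance H2-Aa lay at 0.0128, Ciita at 0.07, Cd74 at 0.137 and H2-DMa at 0.140 from the summed chains.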

How the data were processed

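The authors deposited whole-number, unscaled counts per gene, in a table for each library. The text notes that accompany the tables name the mm10 assembly and GENCODE M4. No source used here names the aligner, the counter, its strand setting or how duplicates and multiple matches were handled. Of the 22457 identifiers, 22195 matched a symbol in the GENCODE M21 table for GRCm38, which also gave positions and lengths (coding length is the union of coding exons). Levels are CPM of the library total. Libraries were compared with the chi-square test of homogeneity (2 degrees of freedom) over all genes with 30 or more summed counts, Benjamini-Hochberg adjusted over all of them. This test allows for Poisson noise only and compares libraries, not conditions. As alternatives, edgeR 4.0.16 (quasi-likelihood) and DESeq2 1.42.0 (Wald) tested each library against the other 2, and a gene was called if any of the 3 fits called it. Their unadjusted p is the smallest of the 3 fits. Library sizes by TMM or DESeq2 size factors, other count minimums and each library left out were also tried. The scripts were tested on simulated counts. Intervals are exact (Poisson, or Clopper-Pearson for ratios) and cover only counting error, as reads copied from 1 molecule depend on each other. Python 3.11.15 with scipy 1.17.1 and R 4.3.3 were used.

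The members and the 11 gene lists were chosen with earlier results of these data known. Of the listed genes, H2-Ea-ps was not analysed here. The rule for named genes took every member, every pathway gene called, the 3 most abundant of each pathway list, the called markers with the 4 highest and 2 lowest levels of each marker list, and the 10 genes nearest in pattern to the summed chains. All other genes were named after their values were seen. Some genes that the rule took are not reported here.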

Additional observations from a re-analysis of the deposited data

How the results depend on the processing

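The number of genes that differed between libraries, 2277 by the chi-square test, fell to 44 by edgeR and 2 by DESeq2, which allow for spread beyond Poisson noise but set 1 library against 2, and ranged from 904 to 1466 with each library left out. Under edgeR the calls were 0 of the class II pathway genes (7 at an unadjusted p under 0.05), 4 of the B cell, 1 of the dendritic cell, 3 of the monocyte and macrophage and 0 of the Treg and T cell markers (0 unadjusted). Under DESeq2 they were 0 of the pathway genes (1 unadjusted), 0 of the B cell (6), dendritic cell (1), monocyte and macrophage (3) and Treg and T cell markers (0), and 1 of the plasma cell markers. A minimum of 100 summed counts gave 7 of 8 tested B cell markers (11 of 13 before) and 2 of 3 monocyte and macrophage markers (5 of 6), testing all genes with any count gave 5 of 9 dendritic cell markers (3 of 4), and TMM library sizes gave 5 Treg and T cell markers. With each library left out, calls ranged from 4 to 13 for the pathway, 2 to 9 for B cell, 0 to 3 for dendritic cell, 2 to 5 for monocyte and macrophage, 1 to 3 for plasma cell and 1 to 7 for Treg and T cell markers. Fewer libraries also give less power. The highest-over-lowest ratio of the summed members, 1.48, ranged from 1.06 to 1.48 with each library left out, was 1.92 without Cd74 and was 2.78 for the chains alone, which was added after the data were seen. Of 46 called marker and pathway genes, 36 lost the call under edgeR. The share of calls lost was larger over all genes, by the counts given above. No paired analysis was possible because the libraries form 1 group. Low counts limit Ciita, H2-DMb1 and H2-DMb2, and the cause of each change was not tested.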

Other observations

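Genes whose promoter held the X and Y boxes at the stated spacing were looked at outside the 10 members, as a description. Of the 7935 tested genes with a promoter window, 22.5% were called by the chi-square test. Of the 98 with the pair on either strand, 30 (30.6%) were called, with a median ratio of highest to lowest library of 1.21. With TGATTGG alone, 214 of 991 genes (21.6%) were called.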
